A study of Mus musculus with 8 samples.

Results

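The pyruvate dehydrogenase complex (PDC) and the enzymes that switch it off and on were followed through 10 genes: the subunits *Pdha1*, *Pdhb*, *Dlat* and *Pdhx*, the kinases *Pdk1*, *Pdk2*, *Pdk3* and *Pdk4*, and the phosphatases *Pdp1* and *Pdp2*. Every non-control probe carrying one of these names on the Agilent array was taken, which gave 22 of the 56605 probes. The RefSeq accession of 16 of these probes was found in the mouse RefSeq gene table, each under the same symbol, and the other 6 were listed by Ensembl or GenBank entries and kept the name given by the array. The genes were chosen by their function with results of these arrays already known, the differences between Pg and Co mice included. Their differences, standard errors and adjusted p-values are therefore a description of the fit and not independent evidence.

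RNA was from C57BL/6J male mice, 12 weeks old, without any genetic modification. The Co group (n = 4) received 100 μL of saline, and the Pg group (n = 4) received sonicated *Porphyromonas gingivalis* in the same volume of saline, at a dose that the sample labels print as 108 CFU, with the superscript lost. Injection was intravenous and single, the tissue was taken 18 h later, and each mouse had its own one-color array. The agent was a single dose of disrupted bacteria given into the blood, and not an infection of the gum, which limits it as a model of periodontal disease.

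The labels give the tissue as brown adipose tissue, which the marker genes bore out only in part. The single probe of *Ucp1*, the uncoupling protein that defines brown fat, was not well above background on any of the 8 arrays, and nor were those of *Elovl3*, *Slc27a2* and *Bmp8b*. *Cidea*, a lipid droplet protein of brown adipocytes, was measured on all 8 arrays, as were 10 of 15 brown adipocyte genes, all 10 general adipocyte genes including *Adipoq* and *Plin1*, and all 20 skeletal muscle genes including *Acta1* and *Ckm*. The mean log2 signal in Co and Pg mice was 18.54 and 18.51 for *Acta1*, 16.98 and 16.83 for *Ckm*, 13.44 and 13.34 for *Cidea*, 10.29 and 10.29 for *Adipoq*, and 6.89 and 7.24 for *Plin1*. These are levels of different probes and give no order between genes, but muscle RNA was present, and *Ucp1* was not detected by the single probe that the array carries for it. The share of muscle in the RNA, and how far the values below describe brown fat, was not tested. Muscle and brown fat both use the PDC heavily, so that in such bulk RNA a change in the share of a cell type and a change in RNA per cell cannot be told apart. Co arrays had 34760 to 35830 probes with signal well above background, and Pg arrays had 31132 to 34063, without overlap (p = 0.0286 in a two-sided exact permutation test, which cannot go lower with 4 arrays a group). The SD of the negative controls was 2.30 to 2.44 intensity units on Co arrays and 2.53 to 3.23 on Pg arrays. All Co arrays occupied row 1 of a slide and all Pg arrays its row 2, so that slide position and treatment cannot be told apart. Within each row, the replicate number was the slide column.

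The PDC sits in the mitochondrial matrix and turns pyruvate into acetyl-CoA, the step that commits carbohydrate carbon to oxidation or to fat synthesis. PDH kinases phosphorylate the E1 alpha subunit and shut the complex down, and PDH phosphatases remove the phosphate and open it again. Fasting and fatty acid use raise *Pdk4* in muscle and other tissues, and in brown fat the complex must be open for glucose to be burned. Transcript levels of these genes do not give the phosphorylation state, which was not measured on the arrays.

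An array probe reports only the 60 bases it carries, and 4 of the 22 probes are shown here. Those of *Pdp1* and *Pdha1* are given since these genes had the calls (for *Pdp1* on its other probe, A_51_P452637), that of *Pdk4* since it had none, and that of *Pdk1* since 1 array stood far apart. Of each, the first 30 bases are printed, in lower case, 5′ to 3′ on the strand of the transcript, and no letters are marked.
Pdp1 A_55_P2269497: ggtttgaatgctgtctatggttagagaaac
Pdha1 A_55_P2835362: gctgtgacataggaaagataggggagagct
Pdk4 A_51_P350453: tatgaacccatgggagactttaaactcttg
Pdk1 A_55_P2590813: atacaggatgtaaggtgagtgtcttcccag
In the probe positions of the array design, which are on mm9, this *Pdp1* probe lies on the minus strand at chr4:11885487-11885546, the *Pdha1* probe on the minus strand at chrX:156560573-156560632, the *Pdk4* probe on the minus strand at chr6:5433441-5433500, and the *Pdk1* probe on the plus strand at chr2:71722122-71722181. Exon annotation of mm9 was not used here. None of the 22 probe sequences was shared with another probe of the array, but whether a probe also binds other transcripts was not tested.

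Of the 22 probes, 17 read lower in Pg mice and 5 higher, and their median log2 fold change was −0.11, against −0.04 for all 33819 probes tested. Lower readings were common on these arrays, at 57.7% of all tested probes. All 22 were well above background on all 8 arrays, so each value rests on measured signal in both groups. A single probe, of *Pdp1*, had an FDR q under 0.1 together with a fold change above 1.5, the definition of a differentially expressed gene (DEG) in this study, where 1.61% of all tested probes met it and 1.3% met it with lower Pg values. That background depends on the processing. Its 440 lower and 106 higher probes became 28 and 66 with normexp background correction, 46 and 60 with the values processed by the authors, and 211 and 107 among probes above background on all 8 arrays, a condition that all 22 met. An FDR q under 0.1 at any fold change was reached by 2 of the 22 probes, both lower in Pg mice, against 7.82% of all tested probes and 6% with lower Pg values. With the brightest probe standing for each gene, 8 of the 10 genes were lower, where 52.8% of all genes were. For 6 of the 22, all Pg arrays lay below all Co arrays, whereas 15.8% of all tested probes did not overlap in either direction and 11% did so with lower Pg values. Since the genes were proposed knowing this contrast, nothing is read from these counts.

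**Figure D1:**
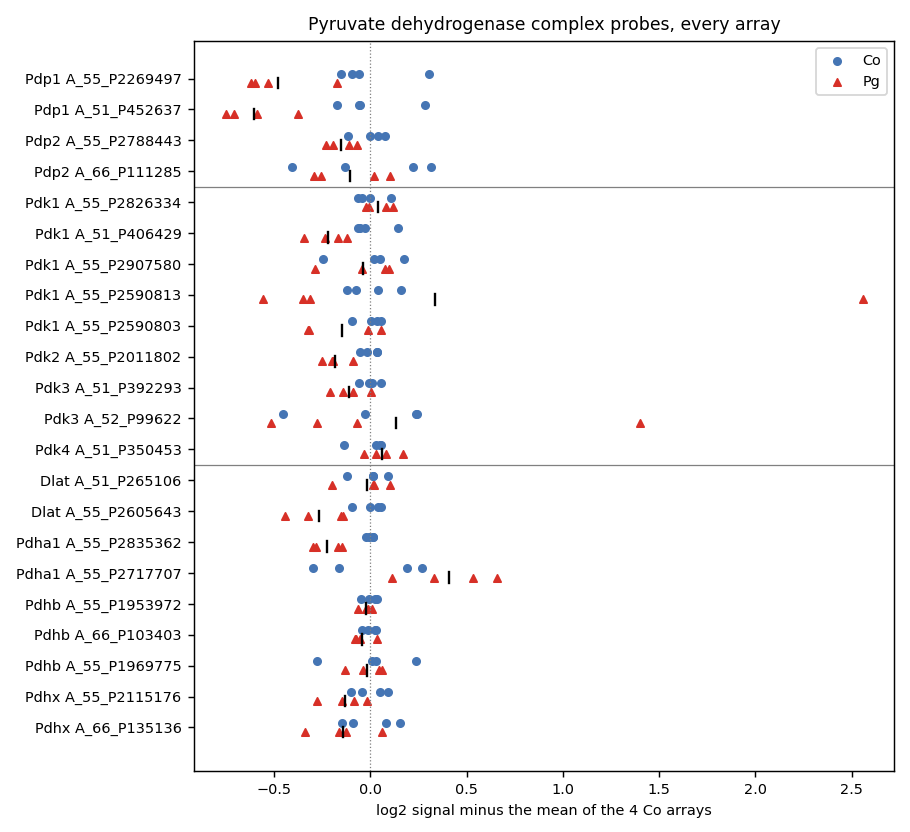
Log2 signal of each of the 22 PDC probes on every array, as the difference from the mean of the 4 Co arrays; circles are Co arrays, triangles are Pg arrays, the short black line is the Pg mean, and grey lines part phosphatases (top), kinases and subunits. Both *Pdp1* probes lie to the left of their Co arrays, most kinase and subunit probes lie near 0, and 1 Pg array stands far to the right for a *Pdk1* probe.

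The phosphatases turn the complex on. *Pdp1* encodes the calcium-sensitive catalytic phosphatase that is abundant in muscle. With probe A_51_P452637 its log2 signal was 9.67, 9.67, 9.55 and 10.01 on Co arrays 1 to 4 and 8.98, 9.14, 9.02 and 9.35 on Pg arrays 1 to 4. Every Pg array lay below every Co array, and array 4 was the highest of its group in both. The mean was 9.72 ± 0.20 (SD, n = 4) in Co mice against 9.12 ± 0.17 in Pg mice, so *Pdp1* fell by 0.60 on the log2 scale (95% interval −0.89 to −0.32, standard error 0.12, limma adjusted p = 0.0579). In linear terms the Pg signal was 0.658 of the Co signal.

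The second *Pdp1* probe, A_55_P2269497, read 10.92, 11.01, 10.98 and 11.38 on the Co arrays and 10.48, 10.45, 10.54 and 10.90 on the Pg arrays. Again all Pg arrays were below all Co arrays, by a narrow margin for Pg replicate 4. Its log2 fold change was −0.48 (standard error 0.14, 95% interval −0.80 to −0.16), and it missed the threshold with an adjusted p of 0.102 from limma. It was lower in Pg mice in all 17 processing alternatives and had a q under 0.1 in 5 of them. Both probes had array 4 as the highest of each group.

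The call of *Pdp1* did not hold in every fit. Probe A_51_P452637 was lower in Pg mice under all 17 processing alternatives, between −0.68 and −0.51, and had a q under 0.1 in 9 of them, but met the fold limit as well in only 5. Among the 8 fits without 1 array, it stayed a DEG only without Pg replicate 4 (adjusted p = 0.0868) and kept a q under 0.1 without Pg replicate 3 (adjusted p = 0.0859). Leaving out any of Co replicates 1 to 4 or Pg replicates 1 or 2 took the adjusted p to between 0.101 and 0.128, all from limma.

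**Figure D2:**
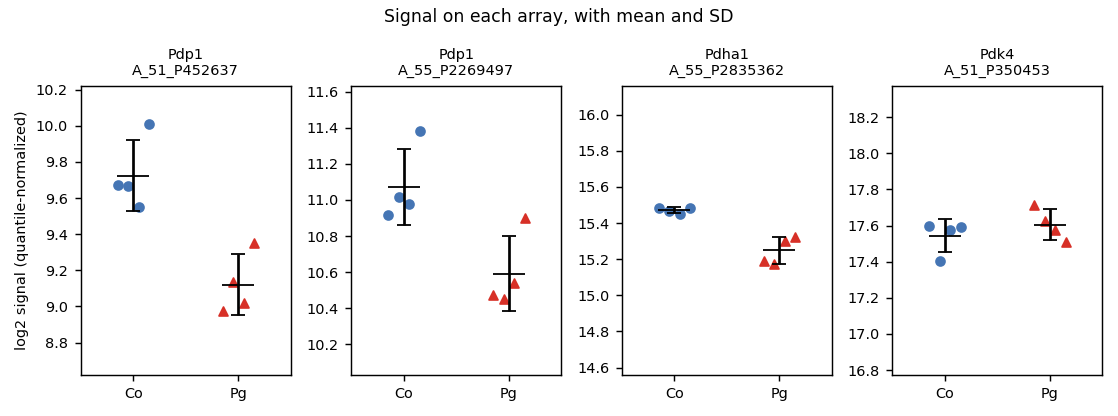
Log2 signal on each array for both *Pdp1* probes, the brighter *Pdha1* probe and the *Pdk4* probe; circles are Co arrays, triangles are Pg arrays, bars are the mean and SD of 4 arrays, and each panel spans the same width on the log2 scale around its own centre. Pg arrays lie below Co arrays for *Pdp1* and *Pdha1* and overlap with them for *Pdk4*, where 2 Pg arrays lie above all Co arrays.

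*Pdp2* encodes the other catalytic phosphatase, known for its response to insulin in fat and liver. Probe A_55_P2788443 read 14.73, 14.77, 14.58 and 14.69 on the Co arrays and 14.46, 14.50, 14.58 and 14.62 on the Pg arrays. The groups met at Co replicate 3 and overlapped, and the difference was −0.15 (standard error 0.07, 95% interval −0.30 to 0.00, adjusted p = 0.221 from limma). A_66_P111285 differed by −0.11 with a wider interval of −0.51 to 0.30 (adjusted p = 0.749 from limma). The Co mean was 14.69 for A_55_P2788443 and 10.27 for A_66_P111285. Most of the sequence of A_55_P2788443 is a run of alternating t and g, and how much of its signal came from *Pdp2* was not tested. It stands for *Pdp2* wherever genes are counted by their brightest probe. *Pdpr*, the regulatory subunit of the phosphatase and not among the 10 genes, read 13.11 ± 0.03 (SD, n = 4) in Co mice against 12.93 ± 0.08 in Pg mice, a difference of −0.19 (adjusted p = 0.124 from limma), and its 2 other probes were lower as well without a call.

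None of the 9 kinase probes had a q under 0.1 in limma, while 2 had an unadjusted p under 0.05, as 22.8% of all tested probes did, and their differences ran from −0.22 to 0.33. *Pdk4*, the kinase raised by fasting, read 17.60, 17.41, 17.57 and 17.59 on the Co arrays and 17.72, 17.63, 17.57 and 17.51 on the Pg arrays. The groups overlapped, with Pg replicates 1 and 2 above all Co arrays and Co replicate 2 the lowest of all. The log2 fold change was 0.06 (standard error 0.07, adjusted p = 0.632 from limma), and its 95% interval ran from −0.10 to 0.23, so that a rise or fall to the fold limit of 1.5 lies outside it. The direction turned to −0.04 with scaling to the 75th percentile and stayed positive in the other 16 alternatives.

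*Pdk2*, the most widely expressed of the kinases, read 14.61, 14.65, 14.70 and 14.70 on the Co arrays and 14.42, 14.47, 14.57 and 14.47 on the Pg arrays. The groups did not overlap, but the step was small, at −0.18 (standard error 0.06, 95% interval −0.31 to −0.05, adjusted p = 0.119 from limma). It passed a q under 0.1 only when the variance prior of limma followed the signal level (adjusted p = 0.0525). *Pdk3* with A_51_P392293 was between 6.76 and 6.87 on the Co arrays, against 6.61 and 6.82 on the Pg arrays, a difference of −0.11 (adjusted p = 0.343 from limma). Its other probe, A_52_P99622, differed by 0.13 with an interval of −0.80 to 1.07, and ran from −0.29 to 0.35 over 17 alternatives, below 0 in 2. That probe reads across a span of 3693 bases of mm9, which is longer than its own 60 bases, and Pg replicate 4 was at 6.67, where the other Pg arrays were at 4.75, 4.99 and 5.20. The A_51_P392293 difference turned to 0.04 without normalization between arrays.

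*Pdk1*, the kinase known as a target of the hypoxia factor HIF-1, had 5 probes that did not move together. A_55_P2826334, with the highest mean, read 12.56, 12.58, 12.62 and 12.73 on the Co arrays and 12.60, 12.70, 12.62 and 12.74 on the Pg arrays, and these did not separate (difference 0.04, 95% interval −0.10 to 0.19, adjusted p = 0.723 from limma), and the difference turned in 2 of 16 alternatives, to −0.04 with the median signal and −0.01 with normexp. A_51_P406429, in the same stretch of chromosome 2, was lower on every Pg array, at 10.60, 10.71, 10.82 and 10.77 against 10.89, 10.91, 10.88 and 11.08 (difference −0.22, adjusted p = 0.142 from limma). Probes A_55_P2907580 and A_55_P2590803 differed by −0.04 and −0.15 without a call.

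The fifth *Pdk1* probe, A_55_P2590813, was set apart by a single mouse. It read 8.0, 7.88, 7.77 and 7.72 on the Co arrays and 7.29, 7.53, 10.40 and 7.49 on the Pg arrays, so 3 Pg arrays were below all Co arrays and Pg replicate 3 was far above them. The fitted difference was 0.33 (standard error 0.65, adjusted p = 0.793 from limma). Without Pg replicate 3 it was −0.41 (adjusted p = 0.0861 from limma). On that array the raw mean signal of the spot was 1435 against a median of 1484 over its pixels, with no mark for an uneven or saturated spot, while the 7 other arrays had raw means of 236 to 318. The probe starts 193 bases after the end of A_55_P2590803, which the array design assigns to the same Ensembl transcript, and there Pg replicate 3 was at 7.42, among the other arrays.

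Among the subunits, *Pdha1* had the other q under 0.1. *Pdha1* encodes E1 alpha, the subunit that the kinases phosphorylate. A_55_P2835362 read 15.49, 15.47, 15.45 and 15.48 on the Co arrays and 15.19, 15.18, 15.30 and 15.32 on the Pg arrays. The Co arrays were almost level, the Pg arrays all lay below them, and *Pdha1* fell by 0.22 on the log2 scale (standard error 0.06, 95% interval −0.35 to −0.09, adjusted p = 0.0796 from limma), a change to 0.857 of the Co signal and well under the fold limit. The q stayed under 0.1 in 5 of the 17 alternatives, which included only 1 of the 8 fits without an array (without Pg replicate 3). The adjusted p was 0.116 without Pg replicate 4 and between 0.141 and 0.16 without any of the other 6 arrays.

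The second *Pdha1* probe, A_55_P2717707, ran the other way. It matched only an Ensembl transcript and read 5.52, 5.95, 5.87 and 5.38 on the Co arrays and 6.34, 5.79, 6.21 and 6.01 on the Pg arrays. The groups overlapped through Pg replicate 2, and the difference was 0.41 (standard error 0.16, adjusted p = 0.193 from limma), above 0 in all 17 alternatives. Both *Pdha1* probes were on the minus strand of chromosome X, the second at chrX:156574846-156574905.

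*Pdhb*, which encodes E1 beta, was level on all 3 of its probes. A_55_P1953972 read between 15.79 and 15.87 on the Co arrays, and 15.78 and 15.85 were the lowest and highest of the Pg arrays, with a difference of −0.02 and a 95% interval of −0.14 to 0.09. Those of A_66_P103403 and A_55_P1969775 were −0.04 and −0.01. *Dlat*, the E2 acetyltransferase, split between its probes. A_51_P265106 differed by −0.01 (95% interval −0.20 to 0.17), whereas A_55_P2605643 read 12.18, 12.33, 12.28 and 12.31 on the Co arrays and 11.95, 11.83, 12.13 and 12.12 on the Pg arrays, without overlap (difference −0.26, standard error 0.08, adjusted p = 0.12 from limma). *Pdhx*, which binds the E3 enzyme to the core, was −0.13 and −0.14 on its 2 probes, with overlapping groups and adjusted p-values of 0.344 and 0.464 from limma. The E3 enzyme itself, *Dld*, which the PDC shares with related complexes, read 14.14 ± 0.02 (SD, n = 4) in Co mice against 13.97 ± 0.08 in Pg mice, a difference of −0.17 (adjusted p = 0.139 from limma).

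**Figure D3:**
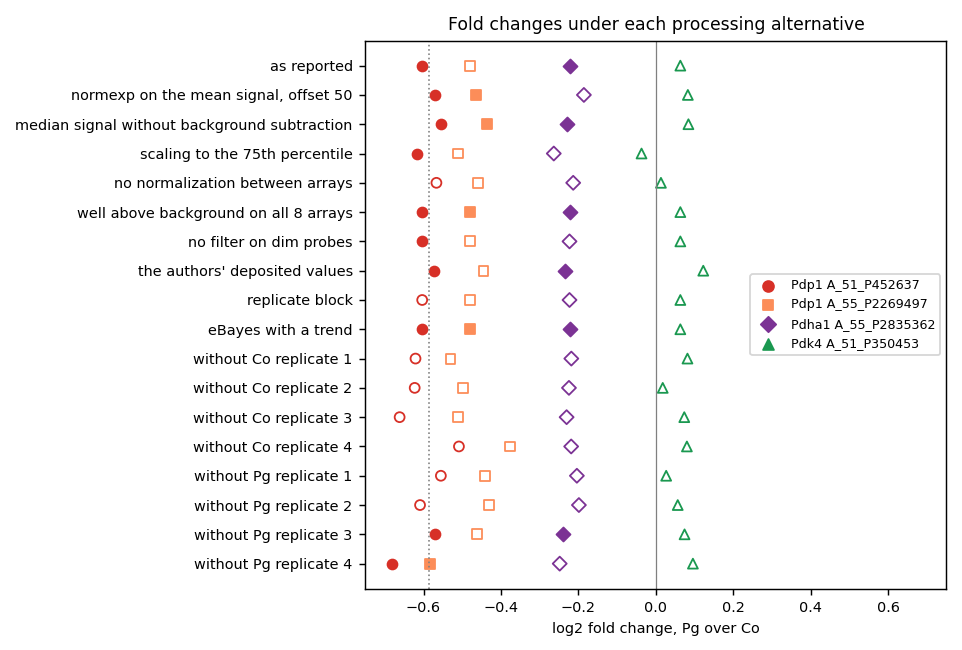
Log2 fold change of Pg over Co mice for 4 probes under each processing alternative and with each array left out; filled marks have an adjusted p under 0.1 from limma, open marks do not, and the dotted line is a fold change of 1.5 downwards. Both *Pdp1* probes and the *Pdha1* probe keep their direction in every fit, with filled marks in only some of them, and *Pdk4* stays near 0.

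Genes around the complex were taken as lists, with the probe of highest mean standing for a gene. For 22323 gene names tested in this way, 6.23% had a q under 0.1, 4.18% lower and 2.05% higher in Pg mice, and the median log2 fold change was −0.01. Of 91 genes tested in the 7 lists beyond the 10 PDC genes, 5 had a q under 0.1, all lower, and none was a DEG by the probe that stood for it. The 75 further probes of these genes added 8 lower and 1 higher with a q under 0.1 (12%, against 7.82% of all tested probes), of which 3 lower and 1 higher were DEGs (against 1.61% of all tested probes). The 166 probes of the 91 genes together had a q under 0.1 in 8.43%. These included genes without a call on their brightest probe. *Hif1a*, the hypoxia factor itself, rose by 0.86 on A_66_P107191 (limma adjusted p = 0.0998) and differed by 0.11 on its brightest probe. *Foxo1*, a forkhead factor, fell by 0.66 on A_52_P453884 (limma adjusted p = 0.088), where its brightest probe differed by −0.38 (adjusted p = 0.324). Single further probes of the cycle enzymes *Sdha* and *Suclg2* fell by 0.26 and 0.25 (limma adjusted p = 0.0573 and 0.0838), where their brightest probes differed by −0.05 and −0.10. The 6 probes of the lipase *Lpl* went both ways: 2 fell by 0.32 and 0.34 (limma adjusted p = 0.0683 and 0.0628), the brightest differed by −0.11, and the other 3 differed by 0.46, 0.46 and 0.33 without a call. A further probe of the malic enzyme *Me3* was lower with an adjusted p of 0.0683 from limma, but no Pg array measured it well above background. The remaining further probes with a q under 0.1 were of *Foxo3* and *Txnip*. The lists below are counted by the brightest probe. PDC partners, which attach lipoate and thiamine cofactors or share subunits, had no call among 9 tested genes (median 0.03), with *Dld* and *Pdpr* as given above. Pyruvate supply and use had none among 14 (median −0.06). There the mitochondrial pyruvate carrier subunits *Mpc1* and *Mpc2* differed by 0.09 (adjusted p = 0.405 from limma) and −0.12 (adjusted p = 0.319), and their further probes differed by −0.16 and −0.10 for *Mpc1* and by −0.38 for *Mpc2* (adjusted p = 0.146), without a call. The tricarboxylic acid cycle had none among 15 (median −0.00, with 8 lower and 7 higher).

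Of the 11 genes of related dehydrogenase systems and their regulators, 2 had a q under 0.1, beside 6.23% of all genes. Neither kept it with the replicate number as a block, where no tested probe of the array had one. *Dbt*, the E2 subunit of the branched-chain ketoacid dehydrogenase, read 9.25, 9.02, 9.05 and 9.05 on the Co arrays and 8.53, 8.40, 8.73 and 8.67 on the Pg arrays. It fell by 0.51 on the log2 scale (limma adjusted p = 0.0517, standard error 0.09). *Bckdha*, the E1 alpha subunit of the same complex, fell from 14.88 ± 0.02 (SD, n = 4) to 14.69 ± 0.05, a difference of −0.20 (adjusted p = 0.0859 from limma). In this list 8 genes were lower and 3 higher, with a median of −0.08.

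Among 13 factors known to act on the *Pdk4* promoter, *Foxo3*, a forkhead factor of fasting, fell by 0.28 (limma adjusted p = 0.0636, standard error 0.06), and 2 further probes of it were lower, 1 of them with a q under 0.1. Among 17 targets shared with *Pdk4* in fasting and PPAR signaling, *Txnip*, a glucose-responsive inhibitor of glucose uptake, was the one call. It read 16.40 ± 0.13 (SD, n = 4) in Co mice against 16.03 ± 0.12 in Pg mice, and fell by 0.38 (limma adjusted p = 0.0704), and its other probe fell by 0.66 (adjusted p = 0.0444). The median of these targets was −0.11, with 11 lower and 6 higher. Among 12 hypoxia targets, *Adm*, which encodes a vasodilator peptide, fell by 0.34 (adjusted p = 0.0587 from limma), and the median was −0.05. *Car9*, a carbonic anhydrase, differed by −1.68 (standard error 1.40) through Co replicate 4 alone, at 13.75 where the other 7 arrays were at 6.91 to 7.52. Each of these 5 calls was lost in some of the fits without 1 array, in which 0 to 6 genes of the lists had a q under 0.1. None was left without Co replicate 2, 3 or 4 or Pg replicate 1, where 12 to 19 of the 91 genes had an unadjusted p under 0.05, as did 6395 to 6946 of all 33819 probes in the same fits, and 2, 2 and 1 were left without Co replicate 1, Pg replicate 2 and Pg replicate 4.

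**Figure D4:**
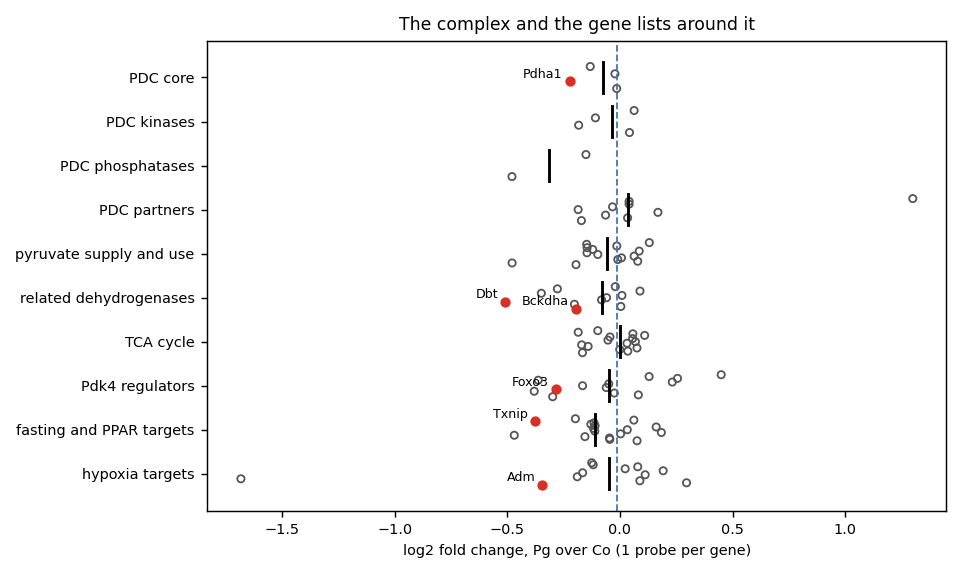
Log2 fold change of Pg over Co mice for each tested gene of the PDC and of the lists around it, 1 probe per gene; filled red points have an adjusted p under 0.1 from limma and are named, black lines are list medians, and the dashed line is the median of all 22323 tested gene names. The medians of the kinase, partner and tricarboxylic acid cycle lists lie near the dashed line, and all named genes lie to its left.

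The log2 of the summed signal of the 20 muscle genes was 22.01 to 22.10 on the Co arrays, against 21.98 to 22.07 on the Pg arrays, and 16 of the 20 genes were lower and 4 higher (median −0.07), where 52.8% of all genes were lower. By its brightest probe 1 of these genes had a q under 0.1, *Atp2a1*, the calcium pump of fast muscle, which fell by 0.44 (adjusted p = 0.0411 from limma). The muscle sum rests on probes near the top of the scale. Quantile normalization gives every array the same set of values there, so the near equality of these sums is not read as an equal share of muscle. The 11 tested brown adipocyte genes summed to 18.84 to 18.99 on the Co arrays, against 18.97 to 19.10 on the Pg arrays, with no call. That sum rests mainly on *Cox8b* and *Cox7a1*, at 17.94 and 17.75 in Co mice, where *Cidea* was at 13.44. Whether the RNA of these 2 genes came from brown fat or from muscle was not tested. The 10 adipocyte genes (17.34 to 17.43 against 17.24 to 17.54), 9 macrophage genes (15.06 to 15.29 against 15.02 to 15.67) and 7 neutrophil genes (15.31 to 15.64 against 15.57 to 15.76) overlapped between the groups as well, with no call. These sums rest on the brightest genes, such as *Csf3r* at 15.40 in Co mice, and single genes differed more. The neutrophil calprotectin genes *S100a8* and *S100a9* differed by 2.16 and 2.04 (limma adjusted p = 0.132 and 0.195). *S100a8* read 4.56, 5.20, 5.33 and 5.09 on the Co arrays against 8.59, 8.32, 5.18 and 6.76 on the Pg arrays, with Pg replicate 3 among the Co arrays. Of the 7 neutrophil genes 6 were higher (median 0.22), and of the 9 macrophage genes 6 were higher (median 0.36). The groups also overlapped for the 7 red blood cell genes (17.69 to 18.39 against 16.67 to 18.43), all of which read lower in Pg mice with 1 call, and for the 8 endothelial genes (13.67 to 14.06 against 13.95 to 14.11), with 1 call higher. The part of these cell types, and that of the lower number of probes above background on the Pg arrays, in the *Pdp1* and *Pdha1* differences was not tested.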

How the data were processed

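The authors deposited, for each of 8 arrays (4 Co, 4 Pg mice), the Feature Extraction 11.0.1.1 output, which holds the Cy3 intensity of each spot, background-subtracted and detrended within the array and not normalized between arrays, with flags. They also deposited 28067 entries of quantile-normalized log2 values, used here as an alternative, beside their own fold changes and p-values, which were not used. Depth has no counterpart on arrays, and their number limits the precision.

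Spots marked as population outliers (90 to 150 per array) were left out, intensities were averaged per probe, quantile-normalized, set to at least 1 and taken to log2. lmFit and eBayes of limma 3.58.1 in R 4.3.3 tested the 33819 probes that 4 or more arrays measured well above background, two-sided, with Benjamini-Hochberg adjustment over these probes. The thresholds of a DEG (q under 0.1, fold change above 1.5) are those of the study's methods. Intervals are 95% intervals of the fit. The limma fit was tried on simulated data with known differences, and the other steps were not tested in this way. Samples were grouped by their titles. Alternatives were normexp on the mean signal (offset 50), the median signal, no normalization between arrays, 75th percentile scaling, no filter on dim probes or one over all 8 arrays, the authors' values, a replicate block, a variance trend, and leaving out each array.

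The genes and lists were chosen with earlier results of these data known. Named genes were the 10 PDC genes with every probe, list genes with q under 0.1 (at most 3 a list), *Dld*, *Pdpr*, *Mpc1*, *Mpc2* and the defining markers *Ucp1*, *Cidea*, *Acta1*, *Ckm*, *Adipoq* and *Plin1*. *Elovl3*, *Slc27a2*, *Bmp8b*, *Cox7a1*, *Cox8b*, *Atp2a1*, *Car9*, *Hif1a*, *Foxo1*, *Sdha*, *Suclg2*, *Lpl*, *Me3*, *Csf3r*, *S100a8* and *S100a9* were named after their values were seen.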

Additional observations from a re-analysis of the deposited data

Results flagged for a closer look

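In 2 of 44 groups of 4 arrays (22 probes in each of 2 groups), 1 array lay farther from the others than Dixon's 95% limit allows, with a gap to the nearest array of 0.921 and 0.871 of the group's range, as chance does for about 1 in 20 groups. The *Pdk1* probe A_55_P2590813 was at 10.40 on Pg replicate 3, where the nearest Pg array was at 7.53. The *Pdk4* probe A_51_P350453 was at 17.41 on Co replicate 2, where the nearest Co array was at 17.57. Without Co replicate 2 the *Pdk4* difference was 0.02 in place of 0.06.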

How the results depend on the processing

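No *Pdp1* or *Pdha1* value with a q under 0.1 changed direction in any alternative. Among refitted values of single PDC probes, 360 moved by less than the spread between arrays or stayed on their side of the threshold, and 9 moved by more. The count of PDC probes that were DEGs, 1, became 0 with normexp, the median signal, no normalization between arrays, the authors' values and the replicate block (unadjusted p under 0.05 in limma for 6, 7, 7, 5 and 6 probes, where the authors' values hold 17 of the 22 probes), and 0 to 1 with 1 array left out. The 2 PDC probes with a q under 0.1 became 6 with a variance trend, 4 with the median signal, 1 with no filter or the 75th percentile, 0 without normalization or with the replicate block, and 0 to 3 with 1 array left out. They were 0 without any of Co replicates 1 to 4 or Pg replicates 1 or 2, with an unadjusted p under 0.05 for 6 to 8. The 5 list genes with a q under 0.1 became 9 with normexp, 11 with the trend, 3 with no filter, 0 without normalization (12 unadjusted) or with the replicate block (16 unadjusted), and 0 to 6 with 1 array left out.

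Over all probes, the 546 DEGs (440 lower, 106 higher) became 94 with normexp (28 lower, 66 higher), 283 with the 75th percentile (146 and 137), 108 with the median signal (33 and 75), 27 without normalization (7 and 20), 318 when probes had to be above background on all 8 arrays (211 and 107), 106 with the authors' values (46 and 60), 0 with the replicate block (7392 probes with an unadjusted p under 0.05), and 3 (without Co replicate 3) to 697 with 1 array left out. The 2644 probes with a q under 0.1 became 1546, 29, 1269, 1715 and 0 with the 75th percentile, no normalization, no filter, the authors' values and the replicate block, and 3 to 2378 with 1 array left out. The cause of these differences was not tested. The median of all probes stayed within −0.04 and 0.03 under every scaling. Arrays that share a number did not deviate together as a set (correlations of 0.06, −0.03, −0.07 and 0.18 across probes), so the number was not taken as a pairing. The number is also the slide column, and the 0.18 for number 4 was the largest correlation between any Co and any Pg array. An effect of a single column was not tested.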
